A study of Mus musculus with 22 samples.

Results

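The comparison described here sets lungs of BALB/c mice given ovalbumin (OVA) aerosol against lungs of mice given methacholine (MCh) aerosol, both in the short protocol. Its members are 8 of the 22 RNA sequencing libraries of the series, chosen by their labels alone: 4 OVA libraries and 4 MCh libraries, each of whole lung and, per the labels, each a separate biological replicate. Methacholine is an agonist of muscarinic acetylcholine receptors that makes airway smooth muscle contract. Ovalbumin, a protein of egg white, serves as the allergen. The comparison asks how lungs differ after inhaled allergen and after an inhaled bronchoconstrictor. All 8 mice, and the short PBS mice shown beside them, had been sensitized intraperitoneally when 49 days old, received a booster at 63 days, and inhaled their aerosol on 3 consecutive days starting at 70 days. The sensitizing agent is not named in the labels. The 3 short PBS libraries (phosphate-buffered saline aerosol) are given as background, and the long protocol, with 3 exposures a week for 4 weeks and 4 OVA and 4 MCh libraries, is used once at the end. The labels conflict in 3 places: short MCh exposure lasted 4 days in the titles and 3 in the treatment text, MCh and PBS animals are normal mice in the titles but sensitized in the treatment text, and the series design names trachea where every sample is labelled lung. Genes that define lung tissue were high in all 8 libraries: the club cell secretory protein Scgb1a1 at 33787 to 52948 FPKM, the surfactant protein Sftpc at 6031 to 13050.5 FPKM and the alveolar receptor Ager at 197 to 421 FPKM.

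In allergic airway inflammation of the type 2 kind, T helper cells and innate lymphoid cells release Il4, Il5 and Il13. Il5 supports eosinophils, and Il4 and Il13 act through the transcription factor STAT6 on macrophages, which turn on arginase, chitinase-like proteins and resistin-like molecules, and on airway epithelium, which turns to mucus production. Muscarinic constriction, by contrast, acts on smooth muscle through Gq-coupled receptors, calcium and myosin phosphorylation, and it strains the airway wall mechanically.

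FPKM is the number of fragments per kilobase of transcript, scaled to library size. Differences are OVA minus MCh on the scale log2(FPKM + 0.5), ± SE with n = 4 and 4 unless stated otherwise, and they understate the change of genes with low FPKM. A gene was called higher or lower at an adjusted p under 0.05 in limma (Benjamini-Hochberg over all 15682 genes tested). Of these genes 1469 were called higher in OVA (9.37%) and 912 lower (5.82%), in all 2381 or 15.2%, and those shares are the background against which each gene list below is read. By at least 2-fold, 656 were higher and 138 lower. All 4 OVA libraries stood above all 4 MCh libraries for 1858 genes (11.8%) and below them for 988 (6.3%). Under quantile normalization the calls were 1445 higher and 1462 lower, or 49.7% higher in place of 61.7%. Without MCh library 4 they were 2285 and 2550, or 47.3% higher. The gene lists below were chosen with earlier results of these data known, so their shares of calls are description and not independent support.

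Among the 8 compared libraries, both that stood apart were in the MCh group. In MCh library 4 levels followed transcript length as they did in OVA: the rank correlation of a gene's level, relative to the mean of all libraries, with its transcript length was -0.636, against -0.469 to -0.394 in the OVA libraries and 0 to 0.233 in MCh libraries 1 to 3. In short PBS libraries 1 to 3 it was -0.0366, 0.228 and 0.2685. Without MCh library 4 the length trend separates OVA from MCh fully. Counts without that library therefore cannot tell the trend apart from the aerosol. MCh library 1 had 28.3% of genes listed at 0, against 23.0% to 24.7% in the other 7. Among the 3090 genes with the shortest transcripts 415 were called higher and 83 lower. Among the 3090 with the longest transcripts 139 were called higher and 279 lower. With the length trend of each library removed, the shortest gave 340 and 188 and the longest 289 and 273. Where leaving out 1 of the 8 libraries changes the call of a gene given with values, or a printed list count by over 1.5 times, the value without it is given beside it.

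**Figure D1:**
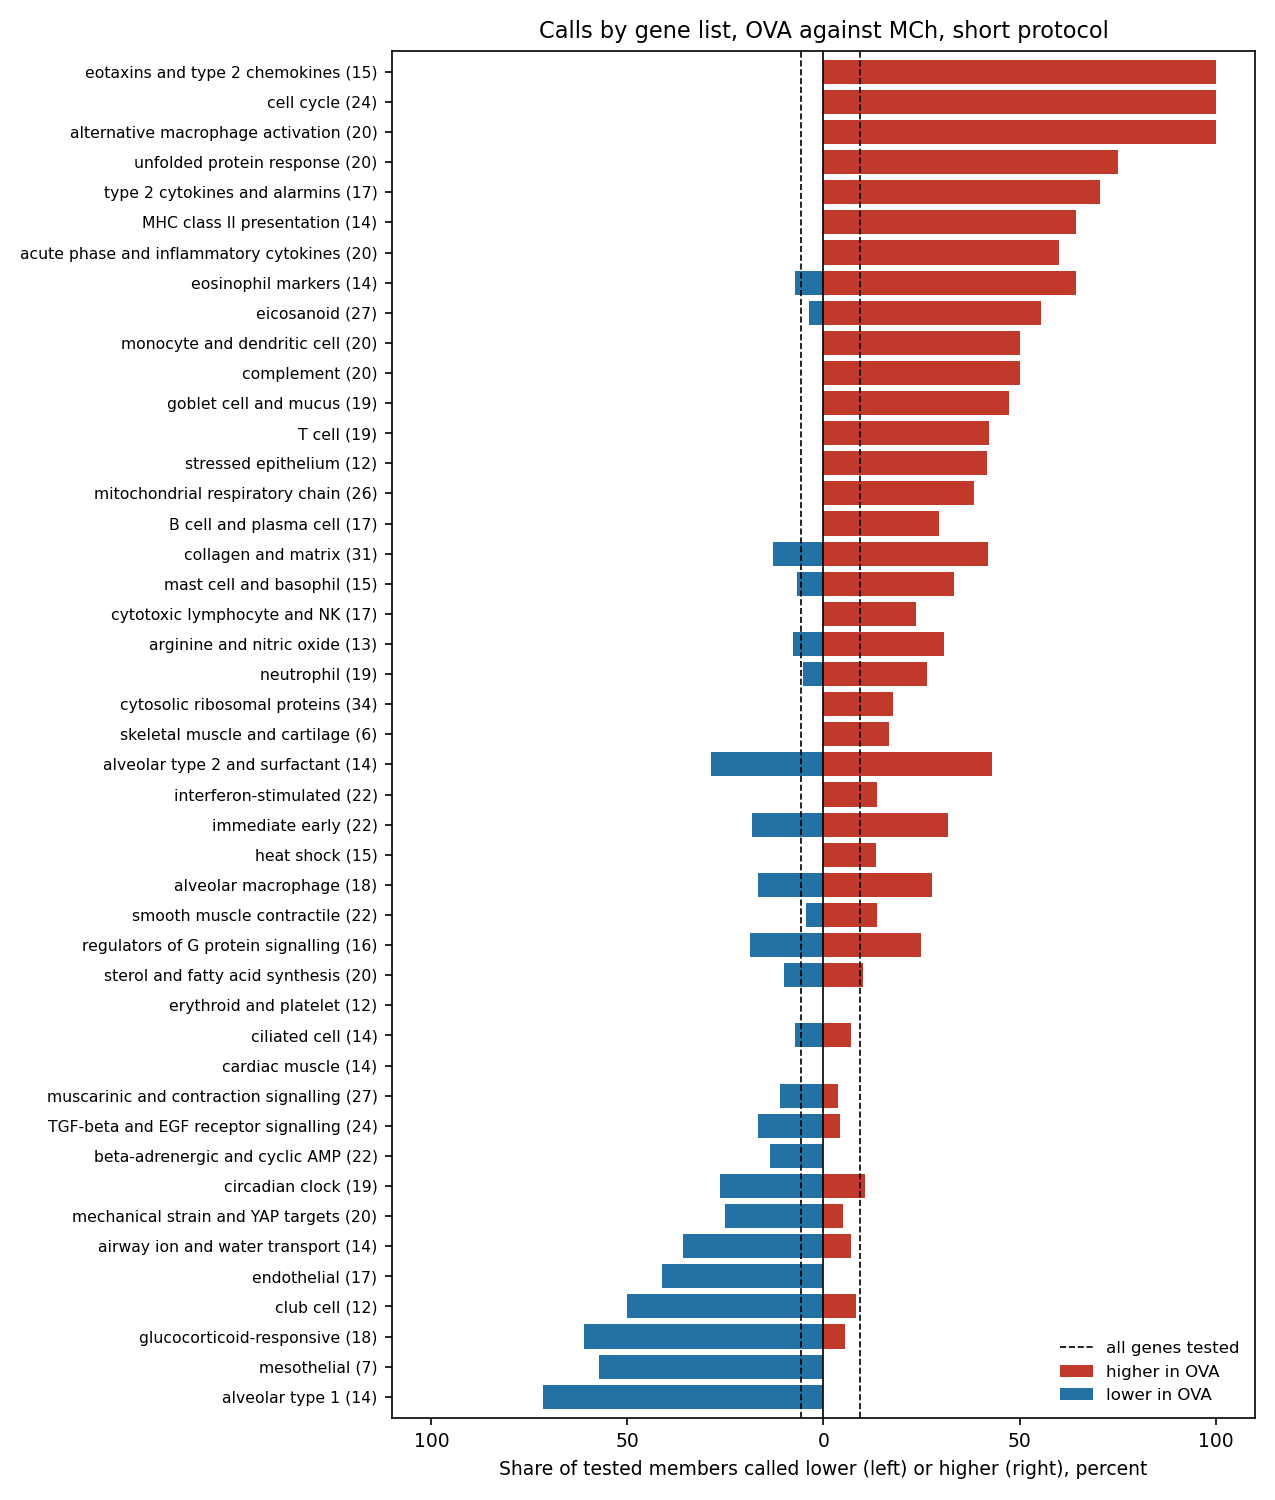
Share of the tested members of each of 45 gene lists called higher (right, red) or lower (left, blue) in OVA than in MCh lungs, in percent; the number tested is in brackets and dashed lines mark the shares over all genes tested, 9.37% and 5.82%. Chemokines, alternative macrophage activation and cell cycle lists are called higher throughout, and the alveolar type 1 list has the largest share called lower.

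The lymphocyte cytokines of type 2 inflammation were measurable in OVA lungs and at or next to 0 in MCh lungs. Il13, which drives mucus production and airway hyperresponsiveness, stood at 10.7, 9.73, 4.42 and 7.38 FPKM in OVA libraries 1 to 4 and at 0, 0, 0.0982 and 0 FPKM in MCh libraries 1 to 4 (3.97 ± 0.21, limma adjusted p = 1.35e-10). Il5, the survival factor of eosinophils, stood at 9.95, 9.92, 5.37 and 7.67 FPKM in OVA and 0, 0.0770, 0.214 and 0.0401 FPKM in MCh (3.88 ± 0.22, limma adjusted p = 3.42e-10). Il4 (chromosome 11, GRCm38), the cytokine of T helper 2 differentiation, was listed at 0 in all 4 MCh libraries and at 6.13, 4.73, 2.18 and 2.35 FPKM in OVA (limma adjusted p = 1.02e-08). For each of these cytokines the lowest OVA library lay far above the highest MCh library. In PBS lungs Il5 stood at 0.136 ± 0.0590 FPKM (SD, n = 3), and Il13 was listed at 0 in all 3 libraries. In bulk tissue a higher value can come from more cells of a type or from more RNA per cell, and these cannot be told apart here.

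Il33, an alarmin stored in epithelial and stromal nuclei, was already abundant in MCh lungs, at 92.1, 71.6, 64.3 and 62.6 FPKM, and higher in OVA, at 463, 499, 385 and 346 FPKM (2.54 ± 0.16, limma adjusted p = 1.02e-09). The follicular helper cytokine Il21 was higher by 2.98 ± 0.18 and the decoy receptor Il13ra2, itself a STAT6 target, by 2.56 ± 0.17 (limma adjusted p = 8.28e-10 and 2.07e-09). Of the 21 genes listed as type 2 cytokines, alarmins and their receptors 17 passed the filter on low values (0.1 FPKM or more in 3 or more libraries), and 12 of the 17 were higher and 0 lower. The alarmin Tslp, the transcription factors Gata3 and Stat6, Csf2 and the receptor subunit Il17rb were the 5 that did not pass the test. The median difference of the 17 was 0.85, against -0.01 over all genes tested.

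All tested chemokines that draw eosinophils and monocytes were higher in OVA lungs. Ccl11, the eotaxin, stood at 514, 494, 288 and 411 FPKM in OVA and 20.5, 7.25, 7.09 and 5.79 FPKM in MCh (5.47 ± 0.52, limma adjusted p = 3.06e-07). Ccl24, a second eotaxin made by macrophages, stood at 95.7, 69.8, 45.6 and 57.3 FPKM against 1.71, 0.916, 0.588 and 1.39 FPKM (5.35 ± 0.33, limma adjusted p = 8.26e-10). Ccl8, a ligand of Ccr8 on T helper 2 cells, reached 305, 184, 139 and 194 FPKM against 2.58, 1.26, 0.407 and 1.33 FPKM (6.84 ± 0.34, limma adjusted p = 5.22e-11). None of the 3 chemokines overlapped between the groups, and the highest MCh value of Ccl11 and of Ccl8 was in MCh library 1. The monocyte attractants Ccl2 and Ccl7 were higher by 5.51 ± 0.57 and 6.85 ± 0.42, and their receptor Ccr2 by 2.36 ± 0.15 (limma adjusted p = 8.85e-07, 8.26e-10 and 1.25e-09). All 15 tested members of the list, of 16 listed, were higher, with a median of 3.34, and all 15 had every OVA library above every MCh library. Il33, Ccl11 and Ccr2 were in MCh lungs at 72.7 ± 13.5, 10.2 ± 6.90 and 5.87 ± 0.825 FPKM and in PBS lungs at 63.6 ± 2.81, 9.83 ± 4.01 and 8.27 ± 0.734 FPKM (SD, n = 4 and 3).

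Macrophages that respond to Il4 and Il13 turn on a characteristic set of enzymes and secreted proteins, called alternative activation. All 20 genes of that list were higher in OVA lungs, with a median of 3.73, and for all 20 the groups did not overlap. Promoters of this list are shown because STAT6 is the factor through which Il4 and Il13 act. A script searched the 250 bases before the transcription start site in the RefSeq promoter table (GRCm38.p6) for the STAT6 motif, TTC and GAA with 4 bases of any kind between them, which reads the same on both strands. Of the 20 genes 16 had an entry in that table, and 4 of the 16 (25%) held the motif, against 5.66% of the 12376 tested genes with an entry. The motif was searched in 3 lists, and the chemokine list held it in 1 of 11 genes (9.09%) and the type 2 cytokine list in 2 of 15 (13.3%). The 3 stretches below belong to Retnla, Cd209e and Pdcd1lg2, run 5′ to 3′ on the gene's strand and end before the start site, with the motif in capitals.
Retnla, chr16:48842439-48842498, plus strand: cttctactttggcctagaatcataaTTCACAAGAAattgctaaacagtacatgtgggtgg
Cd209e, chr8:3854331-3854390, minus strand: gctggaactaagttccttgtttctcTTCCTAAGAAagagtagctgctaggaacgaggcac
Pdcd1lg2, chr19:29410812-29410871, plus strand: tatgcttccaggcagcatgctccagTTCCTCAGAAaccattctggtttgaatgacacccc
The motif began 145, 79 and 82 bases before the start site. A match describes the letters in the window and does not show binding. Over all 701 tested genes with the motif, 14.1% were called higher and 4.99% lower. Over all genes tested, with or without a promoter entry, the shares were 9.37% and 5.82%, so the 2 sets differ in more than the motif.

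Retnla (chr16:48842551-48844461, GRCm38), a resistin-like protein of macrophages and epithelium, was among the most abundant transcripts of OVA lungs, at 36918, 28306, 22787 and 28592 FPKM, and varied widely in MCh lungs, at 299, 177, 82.4 and 470.1 FPKM (7.07 ± 0.62, limma adjusted p = 1.1e-07). Cd209e (chr8:3847965-3854309, GRCm38), a C-type lectin, stood at 97.6, 75.7, 53.5 and 68.8 FPKM against 0.787, 0.396, 0.0734 and 0.245 FPKM (6.44 ± 0.32, limma adjusted p = 5.22e-11). Pdcd1lg2 (chr19:29410919-29471161, GRCm38), a ligand of the checkpoint receptor PD-1, stood at 26.98, 20.8, 11.3 and 19.3 FPKM against 0, 0.627, 0.306 and 0.431 FPKM (4.58 ± 0.31, limma adjusted p = 3.28e-09). The lowest OVA value of Retnla was well above its highest MCh value, which was in MCh library 4. Arg1 (chr10:24915221-24927484, GRCm38), the arginase that competes with nitric oxide synthases for arginine, was low in MCh lungs, at 0.612, 0.277, 0.773 and 0.638 FPKM, and at 223, 158, 112 and 205 FPKM in OVA (7.32 ± 0.37, limma adjusted p = 5.22e-11). The chitinase-like protein Chil3 rose from 206 ± 41.7 to 5834 ± 943 FPKM (SD, n = 4 each; 4.83 ± 0.33, limma adjusted p = 3.52e-09), and Chil4, its close relative in airway epithelium, was higher by 7.18 ± 0.81 (limma adjusted p = 2.91e-06). In OVA library 2 Chil4 stood at 119.8 FPKM, against 618, 554 and 712 FPKM in the other OVA libraries. Ch25h, the cholesterol 25-hydroxylase that makes a chemotactic oxysterol, was higher by 4.78 ± 0.29, and the mannose receptor Mrc1 by 1.68 ± 0.14 (limma adjusted p = 6.31e-10 and 8.43e-08).

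**Figure D2:**
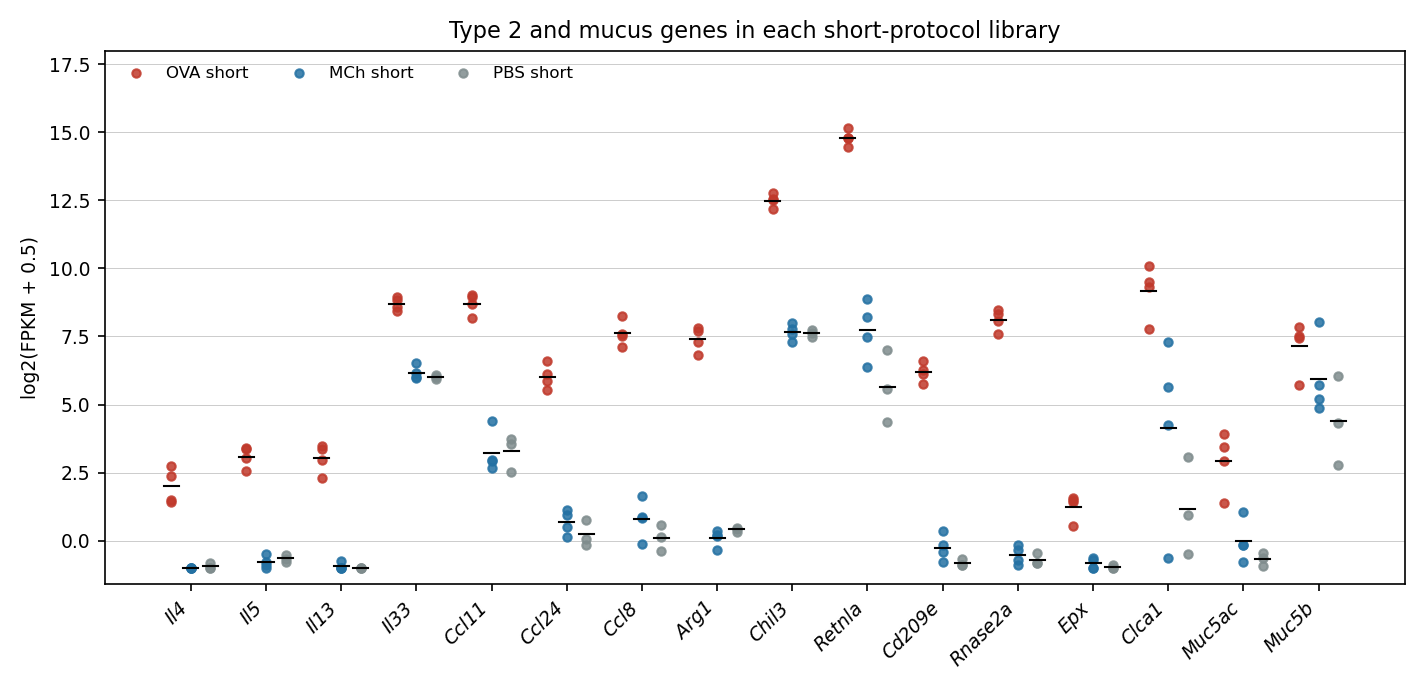
Levels on the log2(FPKM + 0.5) scale of 16 type 2, macrophage, eosinophil and mucus genes; each point is 1 short-protocol library (4 OVA in red, 4 MCh in blue, 3 PBS in grey) and black bars mark group means. The OVA points lie above all MCh points for every gene but Muc5b, while the mucus gene Clca1 is widely spread within MCh.

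Eosinophil genes were higher, though at unequal sizes. Rnase2a (chr14:51255262-51256112, GRCm38), a ribonuclease of the eosinophil-associated family, had the largest difference of all genes tested, from 0.292, 0.388, 0.0429 and 0.114 FPKM in MCh to 355, 320.1, 193 and 267 FPKM in OVA (8.64 ± 0.44, limma adjusted p = 5.22e-11). Epx, the eosinophil peroxidase, stood at 2.46, 2.32, 0.943 and 2.14 FPKM against 0, 0.112, 0 and 0.134 FPKM (2.09 ± 0.19, limma adjusted p = 1.63e-07). The eotaxin receptor Ccr3 was higher by 2.47 ± 0.35 (limma adjusted p = 5.17e-05), with its highest MCh value in library 1. Of 15 listed eosinophil genes 14 were tested, 9 were higher, among them Adgre1, given below as a macrophage marker, and 1 lower. The ribonuclease genes of this family went in opposite directions: Ear2 was higher by 1.85 ± 0.28, while Ear1, which alveolar macrophages also express, stood at 16.96, 12.9, 26.2 and 17.9 FPKM in OVA and 40.1, 50.9, 45.5 and 120 FPKM in MCh (-1.66 ± 0.28, limma adjusted p = 0.000107 and 0.000299). These genes are close copies of each other, and how reads shared between them were assigned is not given in the sources used here, so their split is uncertain. Siglecf, which marks both eosinophils and alveolar macrophages, did not pass. Of 15 mast cell and basophil genes 5 were higher, among them the basophil protease Mcpt8 (1.83 ± 0.22, limma adjusted p = 8.8e-06), and the transcription factor Gata2, which endothelium also expresses, was lower (-0.97 ± 0.15, limma adjusted p = 0.000102), with 2 lower without MCh library 4.

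Several mucus genes were higher in OVA lungs, and their levels differed widely among the MCh lungs. Clca1 (chr3:145003817-145032776, GRCm38), a secreted metalloprotease of goblet cells, stood at 733, 219.8, 1081 and 634 FPKM in OVA and at 158, 49.6, 0.136 and 18.7 FPKM in MCh (5.03 ± 1.29, limma adjusted p = 0.0108, and 0.0598 in a fit of the 8 libraries alone). MCh library 1 came closest to the lowest OVA library, while MCh library 3 was below the PBS mean of 3.16 ± 4.10 FPKM (SD, n = 3). Muc5ac, the gel-forming mucin induced in asthma, stood at 10.3, 2.12, 14.8 and 7.09 FPKM against 1.57, 0.402, 0.0766 and 0.403 FPKM (2.93 ± 0.59, limma adjusted p = 0.00149). Muc5b, the gel-forming mucin of resting airways, did not pass: 182, 51.97, 233 and 174 FPKM in OVA and 260.4, 51.9, 36.3 and 28.5 FPKM in MCh (1.19 ± 0.75, limma adjusted p = 0.33), with the highest value of all 8 libraries in MCh library 1. The chaperone of mucin folding Agr2 and the lectin Itln1 were higher by 2.70 ± 0.62 and 3.39 ± 0.66 (limma adjusted p = 0.00492 and 0.00107), and Retnlb, a resistin-like protein of goblet cells, was listed at 0 in every MCh and PBS library and at 4.75, 1.22, 3.23 and 5.62 FPKM in OVA (limma adjusted p = 5.98e-08). For Clca1, Muc5ac and Agr2 OVA library 2 was the lowest of the OVA libraries. Of 21 listed goblet and mucus genes 19 were tested, and 9 were higher and 0 lower.

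Other epithelial genes divided by cell type. The anion exchanger Slc26a4, pendrin, which secretes bicarbonate and thiocyanate into airway fluid, stood at 118, 126, 77.4 and 111 FPKM in OVA and 0.816, 0.542, 0.723 and 0.142 FPKM in MCh (6.71 ± 0.51, limma adjusted p = 1.59e-08). The subunits of the epithelial sodium channel, which absorbs airway liquid, were all lower: Scnn1a at -1.0 ± 0.17, Scnn1b at -0.75 ± 0.18 and Scnn1g at -0.58 ± 0.10 (limma adjusted p = 0.000367, 0.00539 and 0.000423). In Scnn1b every OVA library (14.3, 17.6, 19.3 and 18.2 FPKM) lay below every MCh library (25.1, 31.2, 32.2 and 29.9 FPKM). Of 14 tested ion and water transport genes 1 was higher and 5 were lower, and 2 were higher without MCh library 1 or 3. The small proline-rich proteins Sprr2a1 and Sprr2a3, cornified envelope proteins of stressed epithelia, were higher by 5.95 ± 0.61 and 6.83 ± 0.60 (limma adjusted p = 8.79e-07 and 1.1e-07), but their copies are near-identical and reads may be split between them. Of 12 tested genes of stressed epithelium, of 17 listed, 5 were higher and 0 lower. Serpinb2, a protease inhibitor that stressed epithelium and macrophages make, rose from 0.0351 ± 0.0536 to 5.80 ± 2.47 FPKM (3.46 ± 0.28, limma adjusted p = 3.11e-08).

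Among genes of club cells, the secretory cells of the distal airway, 6 were lower, but not the main product. Scgb1a1 did not pass (-0.19 ± 0.28, limma adjusted p = 0.706). The xenobiotic enzyme Cyp2f2 stood at 607, 634, 844 and 798 FPKM in OVA and 1839, 1642, 1703 and 2058 FPKM in MCh (-1.34 ± 0.14, limma adjusted p = 7.69e-07), and the secretoglobin Scgb3a2 at 90.4, 81.96, 139.5 and 112 FPKM against 594, 284, 251 and 370 FPKM (-1.77 ± 0.26, limma adjusted p = 8.7e-05). Neither gene overlapped between the groups. Of 12 club cell genes 6 were lower and 1 was higher, the claudin Cldn10 (1.07 ± 0.23, limma adjusted p = 0.00254), and 2 were higher without MCh library 1. Among 14 ciliated cell genes 1 was lower, the tubulin-associated Tppp3 (-0.68 ± 0.15, limma adjusted p = 0.00359), and 1 higher, the regulator of ciliogenesis Mcidas. Without MCh library 4 the lower count was 7, and in a fit of the 8 libraries alone it was 0 (limma adjusted p of Tppp3 0.0571).

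Genes of the flat alveolar type 1 cells were lower, and those of the surfactant-making type 2 cells split. Aqp5, the water channel of type 1 cells, stood at 56.4, 62.4, 66.4 and 60.2 FPKM in OVA and 98.7, 109.9, 97.99 and 136 FPKM in MCh (-0.84 ± 0.12, limma adjusted p = 6.96e-05), and the chloride channel protein Clic5 at 212, 270, 279.6 and 236 FPKM against 389, 469, 462 and 303 FPKM (-0.69 ± 0.12, limma adjusted p = 0.000519). All OVA libraries lay below all MCh libraries in both genes. Of 14 type 1 genes 10 were lower and 0 higher, and 3 were lower in a fit of the 8 libraries alone. Ager, the most used marker of the type, was lower by less (-0.45 ± 0.13, limma adjusted p = 0.0254) and lost its call without MCh library 2 (0.0538), OVA library 1 (0.106) or OVA library 4 (0.0566). Among type 2 cell genes the collectins Sftpd and Sftpa1, which bind microbes, were higher by 1.04 ± 0.14 and 0.80 ± 0.16, while Sftpb, the hydrophobic protein that spreads surfactant lipid, was lower, at -0.83 ± 0.13 (limma adjusted p = 2.01e-05, 0.00113 and 0.000146). Sftpa1 lost its call under quantile normalization (0.40, limma adjusted p = 0.0532) and in the fit of the 8 libraries alone (limma adjusted p = 0.0851). Of 14 type 2 genes 6 were higher and 4 lower, 4 and 5 under quantile normalization and 3 and 2 in the fit of the 8 libraries. Sftpb stood at 1057, 972, 1245 and 1218 FPKM in OVA and 1646, 2108, 1978 and 2263 FPKM in MCh, with no overlap. Sftpc did not pass (0.01 ± 0.21, limma adjusted p = 0.981); MCh library 4, at 13050.5 FPKM, was above all others, and the gene was called lower under quantile normalization (-0.50, limma adjusted p = 0.0152). The chitinase-like Chil1 and the lung chemokine Cxcl15, both made in large amounts by alveolar and airway epithelium, were higher by 2.05 ± 0.16 and 1.30 ± 0.22 (limma adjusted p = 3.11e-08 and 0.000306).

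Genes of protein folding in the endoplasmic reticulum were higher in OVA lungs by modest folds. The unfolded protein response raises such chaperones when secretory load exceeds folding capacity, through the factors Atf6 and Xbp1, which bind the endoplasmic reticulum stress element, CCAAT and CCACG with 9 bases of any kind between them. Of 20 genes listed, 15 were higher and 0 lower, with a median of 0.78, and for 15 of the 20 no OVA library overlapped an MCh library. Without MCh library 1 or OVA library 3 the lower count was 1. The 250 bases before the start site held the element, on either strand, in 7 of the 19 with a RefSeq entry (36.8%), against 0.17% (21 of 12376) of tested genes with an entry. Of those 21 genes 8 were higher and 0 lower in limma, against 9.37% and 5.82% over all genes tested, with or without an entry. The 7 list members, each called higher, are among these 8, so this count largely repeats the list. Sequences are printed for 5 of the 7, as the element is long and rare and its holders could be set beside their levels. Capitals mark the element, which starts with CGTGG and ends with ATTGG where it lies on the opposite strand, and each stretch ends before the start site (GRCm38.p6, RefSeq).
Hspa5, chr2:34772000-34772068, plus strand: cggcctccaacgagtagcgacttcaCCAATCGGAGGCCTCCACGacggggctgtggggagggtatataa
Pdia6, chr12:17266466-17266534, plus strand: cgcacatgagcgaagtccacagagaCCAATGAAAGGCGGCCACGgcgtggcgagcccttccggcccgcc
Dnajc3, chr14:118937802-118937870, plus strand: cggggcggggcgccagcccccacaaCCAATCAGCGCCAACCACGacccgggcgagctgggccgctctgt
Creld2, chr15:88819495-88819563, plus strand: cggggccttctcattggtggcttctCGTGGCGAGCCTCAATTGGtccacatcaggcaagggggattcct
Calr, chr8:84847050-84847118, minus strand: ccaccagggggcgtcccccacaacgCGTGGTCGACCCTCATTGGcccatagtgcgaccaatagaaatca
The element began 65 bases before the start site in Hspa5 and 98 to 162 bases before it in the other 4.

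Hspa5, the chaperone BiP, stood at 472, 544, 593 and 487 FPKM in OVA and 268, 265, 246 and 167 FPKM in MCh (1.16 ± 0.13, limma adjusted p = 1.85e-06). Pdia6, a disulfide isomerase, stood at 324, 353, 347 and 330 FPKM against 162, 158, 157 and 159.6 FPKM (1.09 ± 0.09, limma adjusted p = 7.25e-08), a gap many times wider than the spread within either group. Creld2, a secreted stress protein, stood at 122, 121, 127 and 114 FPKM against 34, 43.96, 42.8 and 49.1 FPKM (1.51 ± 0.13, limma adjusted p = 1.28e-07). Calr, a lectin chaperone, was higher by 0.95 ± 0.09, the co-chaperone Dnajb11 by 0.94 ± 0.08 and Xbp1 itself by 0.71 ± 0.11 (limma adjusted p = 4.57e-07, 1.19e-07 and 0.000103). Dnajc3, an inhibitor of the kinase PERK named for its promoter after its value was seen, was higher by 0.54 ± 0.09 (limma adjusted p = 0.000385). Not every member passed: Atf4, Ddit3 and Trib3, of its PERK branch, and the degradation factors Herpud1 and Sel1l did not pass. Relative to the PBS mean, every MCh library lay within 1 on the log2 scale for each of the 20 genes, except MCh library 4 for Sel1l (-1.06). That library stood below the other MCh libraries in several members, at -0.98 against -0.20 to -0.13 for the chaperone Hsp90b1, -0.78 against -0.22 to -0.10 for Hspa5 and -0.64 against 0.03 to 0.26 for the degradation factor Edem1, and without it 16 genes were higher. Plasma cells, which secrete antibody, are rich in these chaperones. Of 17 B cell and plasma cell genes 5 were called higher, namely Xbp1, Pigr, Derl3, Cxcl13 and Mzb1. Xbp1 is in both lists and Pigr is an epithelial transporter, so this count does not measure plasma cells alone. The summed FPKM of the 17 was 442 to 599 in OVA and 172 to 436 in MCh. The part of plasma cells in this result was not tested.

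Acute phase and inflammatory genes were higher in 12 of 20 and lower in 0. Il6, a cytokine of acute inflammation, stood at 0, 0.0195, 0.0360 and 0.0423 FPKM in MCh and 2.12, 2.003, 1.39 and 1.44 FPKM in OVA (2.08 ± 0.10, limma adjusted p = 5.22e-11). The serum amyloid Saa3 stood at 34, 34.7, 24.03 and 53.02 FPKM against 0.846, 0.628, 1.40 and 1.57 FPKM (4.51 ± 0.34, limma adjusted p = 1.25e-08), and the iron-sequestering Lcn2 and the cytokine Osm were higher by 2.26 ± 0.24 and 1.97 ± 0.20 (limma adjusted p = 1.19e-06 and 9.11e-07). In PBS lungs Saa3 stood at 0.926 ± 0.0765 FPKM (SD, n = 3), and the MCh and PBS libraries overlapped. Of 20 complement genes 10 were higher and 0 lower. C3, the central component, stood at 567, 542, 538 and 562 FPKM in OVA and 220.1, 110.4, 112 and 78.1 FPKM in MCh (2.19 ± 0.22, limma adjusted p = 7.69e-07). Its anaphylatoxin receptor C3ar1 was higher by 3.22 ± 0.25 and C1qa, made by macrophages, by 2.25 ± 0.21 (limma adjusted p = 2.02e-08 and 2.88e-07).

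Neutrophil chemokines were higher, while granule genes of the neutrophil did not pass. Cxcl1 stood at 36.5, 76.4, 32.8 and 49.7 FPKM in OVA and 7.31, 6.60, 3.49 and 3.51 FPKM in MCh (3.10 ± 0.50, limma adjusted p = 0.000185), and Cxcl3 and Cxcl5 were higher by 2.68 ± 0.28 and 3.26 ± 0.71 (limma adjusted p = 1e-06 and 0.00288). Of 19 tested neutrophil genes 5 were higher, the chemokines Cxcl1, Cxcl2, Cxcl3 and Cxcl5 and the resistin-like Retnlg (3.06 ± 0.36, limma adjusted p = 5.72e-06), and 1 lower, the chemokine receptor Cxcr1 (-1.36 ± 0.33, limma adjusted p = 0.00631). S100a8, S100a9, Ly6g, Mpo, Ngp, Camp, Ltf and Mmp8 were among the 13 that did not pass. The summed FPKM of the list ranged from 335 to 431 in OVA and 132 to 499 in MCh, so the groups overlapped.

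Genes of monocytes, dendritic cells, macrophages and antigen presentation were called higher in part. Itgax, the integrin CD11c, stood at 113, 119, 68.6 and 108 FPKM in OVA and 20.4, 23.4, 26.5 and 19.5 FPKM in MCh (2.14 ± 0.19, limma adjusted p = 1.23e-07). The macrophage marker Adgre1, which codes for F4/80, was higher by 1.47 ± 0.13 (limma adjusted p = 1.19e-07). Of 20 monocyte and dendritic cell genes 10 were higher, but Ly6c2 and Cx3cr1 of circulating monocytes and Clec9a, Xcr1 and Flt3 of conventional dendritic cells did not pass. Of 14 genes of MHC class II presentation 9 were higher, with Ctss, the protease that trims the invariant chain, at 1.99 ± 0.19 and the class II chain H2-Aa at 0.93 ± 0.21 (limma adjusted p = 3.25e-07 and 0.0044). H2-Aa stood at 681, 523, 579.6 and 495 FPKM against 311, 238, 205 and 511 FPKM, with MCh library 4 above the lowest OVA library, and lost its call in the fit of the 8 libraries alone (limma adjusted p = 0.0593). Among 18 alveolar macrophage genes 5 were higher, among them the fatty acid binding protein Fabp5 (1.28 ± 0.21) and the protease Ctsk (2.81 ± 0.32; limma adjusted p = 0.000288 and 3.48e-06), and 3 lower (5 under quantile normalization), while the defining genes Siglecf, Marco, Pparg and Car4 did not pass.

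Among T cell genes the activation receptors passed and the lineage genes did not, with all libraries included. Tnfrsf9, the costimulatory receptor 4-1BB, stood at 22.3, 26.8, 15.6 and 20.5 FPKM in OVA and 0.0774, 0.441, 0.640 and 0.629 FPKM in MCh (4.55 ± 0.38, limma adjusted p = 5.67e-08), and Ctla4 and Icos were higher by 1.90 ± 0.27 and 1.92 ± 0.29 (limma adjusted p = 4.14e-05 and 0.000109). Of 19 T cell genes 8 were higher and 0 lower. Without MCh library 1 the higher count was 13. That is more than the activation genes of the list, so the split did not hold without that library. Summed FPKM of the T cell list was 127 in MCh library 1 and 40.2, 37.4 and 47.3 in the others, against 124 to 165 in OVA. For B cell and plasma cell genes MCh library 1 stood at 436, against 201, 172 and 227 in the others and 442 to 599 in OVA. PBS library 2 was high as well, with a T cell sum of 104.6 against 32.87 and 37.05 in PBS libraries 1 and 3. Its B cell and plasma cell sum was 394, against 193.9 and 167.5. Of the 17 B cell and plasma cell genes 5 were higher, and 11 without MCh library 1 but 3 without MCh library 2 or 3 or OVA library 1. Pigr, the epithelial transporter of polymeric antibody, was higher by 2.23 ± 0.38 and Derl3, which is high in plasma cells, by 2.05 ± 0.37 (limma adjusted p = 0.000311 and 0.00051). The joining chain Jchain, which plasma cells make, did not pass (0.82 ± 0.50, limma adjusted p = 0.305).

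Cytotoxic and interferon genes were called in smaller numbers. Of 17 tested genes of cytotoxic lymphocytes 4 were higher, with Gzmb, a granzyme, at 1.996 ± 0.25 and Ifng at 1.47 ± 0.19 (limma adjusted p = 1.22e-05 and 2e-05), while Prf1, Ncr1 and Klrb1c did not pass. The count was 2 without MCh library 3 or OVA library 1. Of 22 interferon-stimulated genes 3 were higher, Cxcl9, Cxcl10 and Irf1, which interferon gamma induces, with Cxcl9 at 2.38 ± 0.47 and Cxcl10 at 2.39 ± 0.23 (limma adjusted p = 0.00126 and 3.06e-07). Genes of the type I interferon response did not pass, such as Ifit3 at 64.2, 86.1, 94.4 and 83.3 FPKM in OVA and 87.9, 94.6, 95.2 and 154 FPKM in MCh (limma adjusted p = 0.205). The share of the list called, 3 of 22, was near the background, and the count was 5 without MCh library 1.

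Every one of the 24 cell cycle genes was higher in OVA lungs, with a median of 1.52, and none overlapped between the groups. Cdk1, the kinase of mitotic entry, stood at 22.2, 14.4, 15.5 and 16.4 FPKM in OVA and 4.16, 1.96, 1.55 and 3.93 FPKM in MCh (2.44 ± 0.32, limma adjusted p = 2.15e-05). Rrm2, a ribonucleotide reductase subunit of S phase, stood at 7.83, 6.97, 6.79 and 7.10 FPKM against 2.19, 1.68, 1.24 and 2.38 FPKM (1.72 ± 0.23, limma adjusted p = 2.2e-05). The inhibitor of apoptosis Birc5, which acts in mitosis, was higher by 1.28 ± 0.14 (limma adjusted p = 1.98e-06). PBS lungs stood at 2.15 ± 0.962 FPKM for Cdk1 (SD, n = 3), inside the MCh range. Which cells divided cannot be read from whole lung.

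Genes of the contractile apparatus, on which methacholine acts through its receptors, were called with all libraries at shares near the background. That background was 9.37% higher and 5.82% lower. Acta2, smooth muscle actin, stood at 235, 244, 192 and 260.5 FPKM in OVA, 150.1, 127, 125 and 134 FPKM in MCh and 88.5 ± 15.9 FPKM in PBS lungs (SD, n = 3), and was higher in OVA than in MCh by 0.79 ± 0.12 (limma adjusted p = 0.000119). Actg2, the enteric actin, and Myl9, the regulatory myosin light chain, were higher by 0.96 ± 0.17 and 0.49 ± 0.10 (limma adjusted p = 0.000508 and 0.00178). None of these 3 genes overlapped between the groups. Tagln, an actin-binding protein of smooth muscle, stood at 282, 273, 248 and 274 FPKM in OVA and 250, 258, 260.1 and 353 FPKM in MCh and did not pass (-0.04 ± 0.12, 95% confidence interval from -0.30 to 0.21, limma adjusted p = 0.857), with PBS at 153 ± 14.4 FPKM. The myosin heavy chain Myh11 did not pass either (0.10 ± 0.32, limma adjusted p = 0.875), but its sign turned without MCh library 4, where it was called lower (-0.42 ± 0.14, limma adjusted p = 0.0336). Smtn, smoothelin, was lower, at -0.60 ± 0.17 (limma adjusted p = 0.0179) and lost its call without MCh library 2 (0.0731) or 3 (0.0777). Of 22 contractile genes 3 were higher and 1 lower, and 3 and 7 without MCh library 4. The lower count was 0 without MCh library 2 or 3 and 3 under quantile normalization, and with the length trend removed 5 were higher and 3 lower. In that library long transcripts such as Myh11, at 4.83 FPKM, were low and short ones such as Tagln, at 353 FPKM, high.

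The muscarinic receptors themselves were low in whole lung and did not pass the test with all libraries. Chrm1, Chrm2 and Chrm3 averaged 0.391 ± 0.131, 0.539 ± 0.137 and 0.597 ± 0.159 FPKM in OVA and 0.441 ± 0.192, 0.902 ± 0.425 and 1.21 ± 0.301 FPKM in MCh (SD, n = 4 each; limma adjusted p = 0.908, 0.49 and 0.171). The interval for Chrm3, the receptor of airway smooth muscle, ranged from -1.26 to -0.01 on the log2 scale. It was called lower in 6 alternative fits, among them those of the 8 libraries (limma adjusted p = 0.0409) and of the 11 short libraries alone (0.0178), quantile normalization (-0.79, 0.0493) and array weights (0.000963), and in none without a single library. Chrm2 was called lower with array weights (-0.46, limma adjusted p = 0.0299). Chat, Slc18a3 and Slc5a7, which make, package and recover acetylcholine in nerve endings, did not pass the filter on low values, so nothing was tested for nerve endings. Of 27 tested genes of muscarinic and calcium signalling 1 was higher, the calcium channel Orai1 (0.60 ± 0.18), and 3 lower, the esterase Bche (-1.03 ± 0.32), the phospholipase Plcb4 (-0.80 ± 0.27) and the channel Trpc6 (-0.53 ± 0.16), with limma adjusted p of 0.0243, 0.0358, 0.0484 and 0.0303. The background was 9.37% higher and 5.82% lower, and the median of the 27 was -0.305, against -0.01 over all genes tested. Without MCh library 4 the counts were 1 and 12, and the lower count was 1 without MCh library 3 or OVA library 2 and 0 without MCh library 2 or OVA library 1 or 4. In the fit of the 8 libraries alone 0 were higher and 1 lower. Calls also ended without other libraries: for Orai1 without MCh library 1, 2 or 3 or OVA library 1, 2 or 4 (limma adjusted p from 0.0546 to 0.102), for Bche without the same 6 (limma adjusted p from 0.0543 to 0.124), for Plcb4 without any library but MCh library 4 (limma adjusted p from 0.056 to 0.17), and for Trpc6 without MCh library 2 or OVA library 1 or 4 (limma adjusted p from 0.0756 to 0.131).

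Regulators of G protein signalling, which shorten the signal of receptors such as the muscarinic ones, moved in both directions. Rgs1 and Rgs16, known from activated lymphocytes and other immune cells, were higher by 3.02 ± 0.31 and 2.90 ± 0.29 (limma adjusted p = 8.85e-07 and 6.7e-07). Rgs4 stood at 9.58, 9.68, 7.31 and 7.44 FPKM in OVA and 3.60, 4.32, 4.12 and 4.19 FPKM in MCh, with no overlap (0.97 ± 0.15, limma adjusted p = 0.000145). Rgs11 and Rgs12 were lower, at -1.11 ± 0.20 and -0.83 ± 0.13 (limma adjusted p = 0.000547 and 0.000189). Over the 16 tested genes 4 were higher and 3 lower.

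Of 22 genes of beta-adrenergic and cyclic AMP signalling 0 were higher and 3 lower in limma, among them the adenylyl cyclase Adcy5 (-0.69 ± 0.21, limma adjusted p = 0.0321) and the phosphodiesterase Pde3a (-0.79 ± 0.22, limma adjusted p = 0.0168). The lower count was 7 without MCh library 4 and 1 without MCh library 2 or 3 or OVA library 1, 1 in the fit of the 8 libraries and 6 under quantile normalization. Pde3a lost its call without MCh library 1, 2 or 3 or OVA library 1 (limma adjusted p from 0.0512 to 0.081), and Adcy5 without MCh library 1, 2 or 3 or OVA library 1, 2 or 4 (limma adjusted p from 0.0571 to 0.115).

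**Figure D3:**
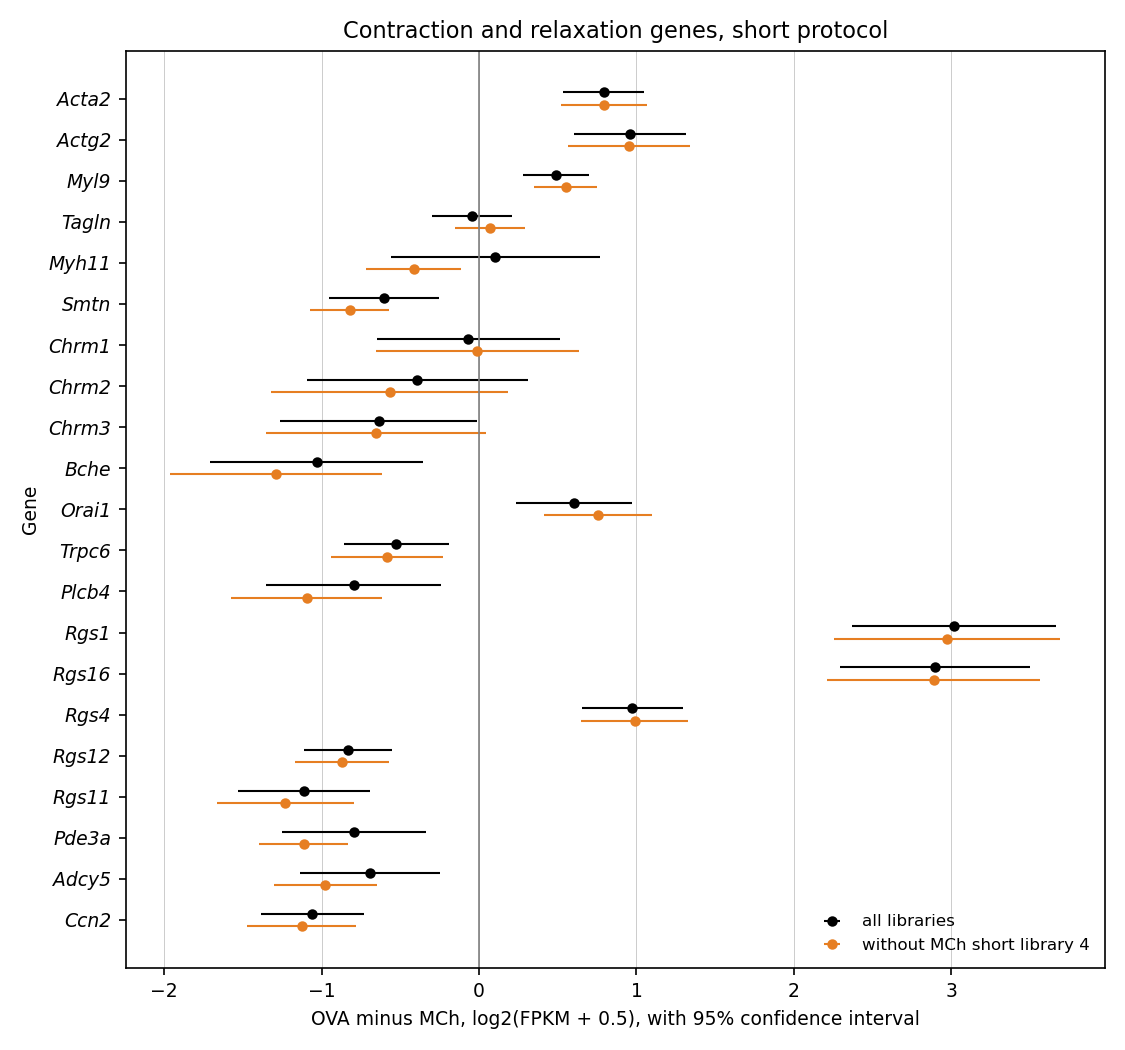
OVA minus MCh difference in log2(FPKM + 0.5) with its 95% confidence interval for 21 genes of contraction, its regulation and relaxation, with all libraries (black) and without MCh library 4 (orange), short protocol. Acta2, Actg2 and Myl9 lie above 0 in both, Tagln spans 0 in both, and Myh11 changes sign.

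Genes that respond to stretch of cells were lower where they passed, with 1 exception. Ccn2, a matricellular target of the coactivator YAP, stood at 74.5, 66.6, 63.4 and 56.7 FPKM in OVA and 121, 154, 155 and 118 FPKM in MCh, with PBS at 113 ± 16 FPKM (SD, n = 3; -1.06 ± 0.16, limma adjusted p = 7.33e-05). The cyclooxygenase Ptgs2 was higher by 1.57 ± 0.25 (limma adjusted p = 0.00018). Of 20 genes of this list 5 were lower and 1 higher, and 9 and 2 without MCh library 4. The lower count was 3 without MCh library 2 or 3 or OVA library 1, and 1 in the fit of the 8 libraries alone. Immediate early genes split, with 7 of 22 higher and 4 lower (7 under quantile normalization). Atf3, Egr2 and Junb were higher by 2.10 ± 0.19, 2.25 ± 0.31 and 1.33 ± 0.19 (limma adjusted p = 1.4e-07, 2.89e-05 and 3.94e-05). Fos and Egr1 did not pass (limma adjusted p = 0.635 and 0.056), with the highest MCh value of both in MCh library 1, and Egr1 passed without it (1.57 ± 0.33, limma adjusted p = 0.00243).

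Most genes of a list known as targets of the glucocorticoid receptor were lower in OVA lungs. Of 18 genes 11 were lower and 1 higher, the higher one being Lcn2, which inflammation also raises, and the median was -0.91. Without MCh library 4, and in the fit of the 8 libraries alone, 2 were higher. The lower count was 10 or 11 without any 1 of the 8 libraries and 11 with the length trend removed. The labels give no corticosteroid treatment, and levels of corticosterone are not among the data used here. Tsc22d3, the leucine zipper protein GILZ, stood at 220.1, 229.7, 302 and 117 FPKM in OVA, 668, 775, 793 and 1009.8 FPKM in MCh and 613 ± 44.97 FPKM in PBS (SD, n = 3; -1.96 ± 0.28, limma adjusted p = 4.86e-05). Pdk4, a kinase that limits glucose oxidation, stood at 5.53, 4.79, 7.69 and 5.21 FPKM against 33.8, 30.6, 24.4 and 15.6 FPKM (-2.04 ± 0.36, limma adjusted p = 0.000478). Hif3a stood at 3.53, 2.32, 4.34 and 1.19 FPKM against 17.9, 20.4, 27.8 and 8.63 FPKM (-2.52 ± 0.40, limma adjusted p = 0.000169). In all 3 genes the OVA libraries were below all MCh libraries, and OVA library 4 had the lowest value of Tsc22d3 and Hif3a. Klf9 and the muscle and liver factor Klf15, which was in no list, were lower, at -1.12 ± 0.16 and -1.96 ± 0.20, and the phosphatase Dusp1 at -1.34 ± 0.19 (limma adjusted p = 5.99e-05, 8.79e-07 and 5.75e-05). The metallothioneins Mt1 and Mt2, which zinc and glucocorticoids raise, did not pass (limma adjusted p = 0.672 and 0.109). Mt2 was called higher without MCh library 4 (1.12 ± 0.40, limma adjusted p = 0.039) and in the fit of the 8 libraries alone (0.92 ± 0.24, limma adjusted p = 0.0392). Named after their values were seen, they stood at 119 ± 16.98 and 191 ± 41.3 FPKM in OVA, 105 ± 32.1 and 103 ± 34.7 in MCh and 42.7 ± 5.66 and 24.1 ± 9.67 in PBS (SD, n = 4, 4 and 3), with no test of either group against PBS made here. Nr3c1, the receptor itself, did not pass.

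The palindrome of the glucocorticoid response element, AGAACA and TGTTCT with 3 bases of any kind between them, which reads the same on both strands, occurred in 1 of the 14 genes of this list with a RefSeq promoter entry and in 1 of 12376 tested genes with an entry (0.00808%), so that the same gene is both. It is Sgk1, a kinase that regulates the epithelial sodium channel, printed because its window alone holds the full element and named for that reason after its value was seen. The stretch, on the plus strand of chr10:21993676-21993740 (GRCm38.p6, RefSeq), has the element in capitals, beginning 189 bases before the start site.
Sgk1: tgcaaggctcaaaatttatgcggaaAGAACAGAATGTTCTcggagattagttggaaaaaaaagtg
Sgk1 was lower, at -0.63 ± 0.14 (limma adjusted p = 0.00374). The other genes lack these letters in the window searched, which says nothing of elements elsewhere.

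**Figure D4:**
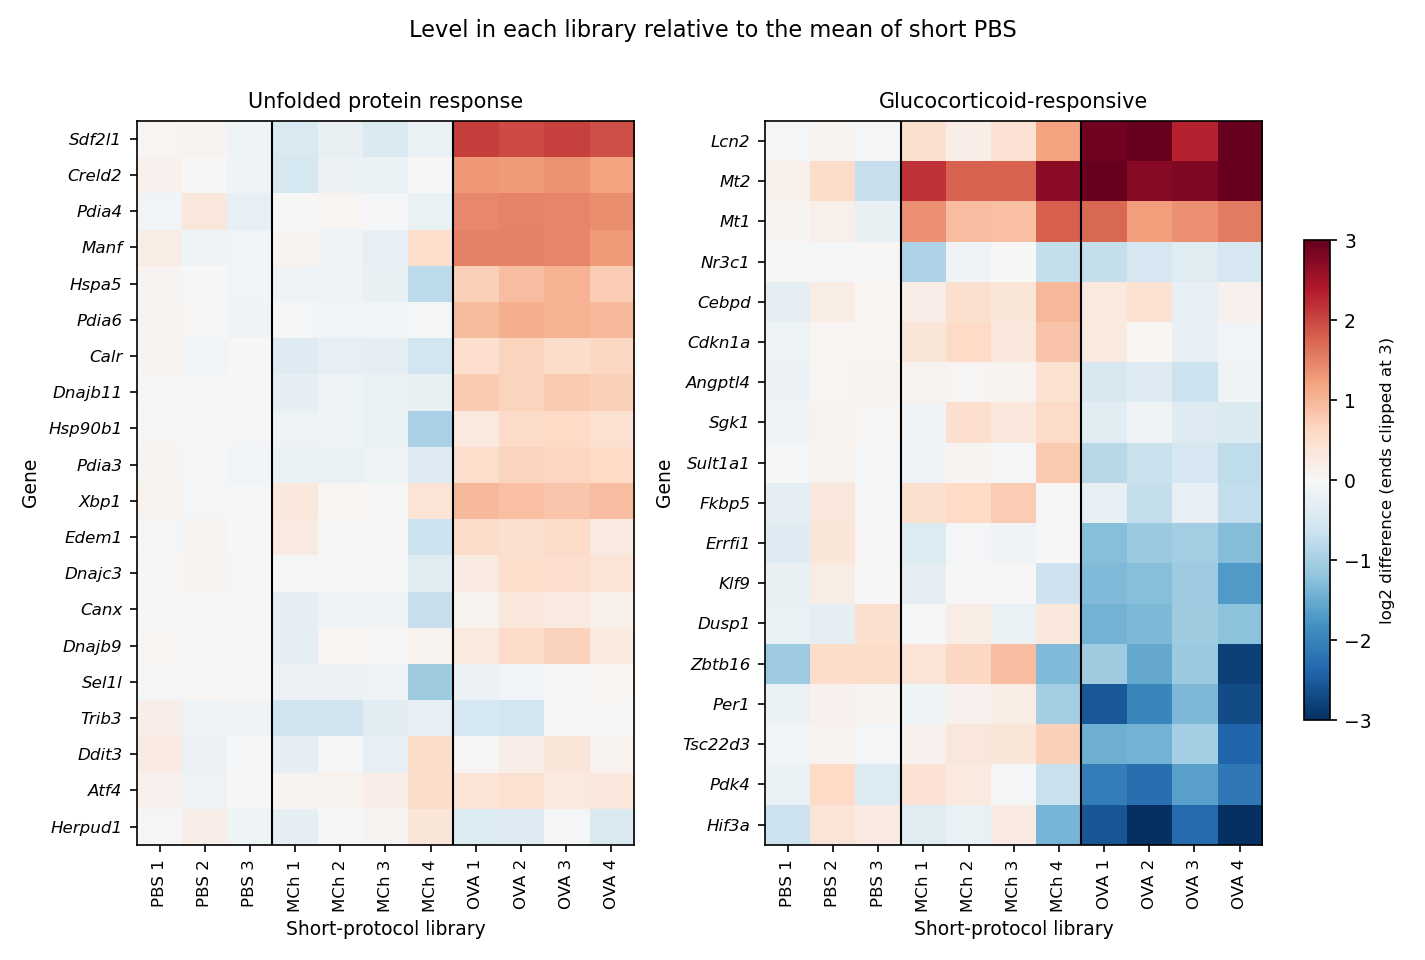
Level of each gene in each of the 11 short-protocol libraries relative to the mean of the 3 PBS libraries, as a log2 difference in colour (red higher, blue lower, clipped at 3), for 20 unfolded protein response genes (left) and 18 glucocorticoid-responsive genes (right). Hspa5, Pdia6 and Creld2 are higher and Tsc22d3, Pdk4 and Hif3a lower in all 4 OVA columns than in all 4 MCh columns, and Mt1 and Mt2 are red in MCh and OVA alike.

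Clock genes shared some of these members. Per1, which glucocorticoids also induce, stood at 4.81, 7.41, 11.6 and 4.31 FPKM in OVA and 27.5, 33.1, 35.4 and 14.8 FPKM in MCh (-1.93 ± 0.35, limma adjusted p = 0.000609). The repressor Cry2 and the clock output Ciart were lower, at -1.001 ± 0.20 and -1.08 ± 0.19, while Bhlhe40 and Nfil3, which cytokines also induce, were higher by 1.34 ± 0.18 and 1.46 ± 0.19 (limma adjusted p = 0.00156, 0.000535, 2.2e-05 and 2.29e-05). Of 19 clock genes 5 were lower and 2 higher, and Clock, Arntl, Nr1d1 and Dbp did not pass. The lower count was 3 without MCh library 2 or 3 or OVA library 1, 2 or 4. The hour at which lungs were taken is not in the labels.

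Matrix genes were higher for inflammatory and fibrillar members. Timp1, the metalloproteinase inhibitor, stood at 41.1, 32.1, 31.7 and 44.1 FPKM in OVA and 1.79, 0.714, 0.714 and 1.74 FPKM in MCh (4.49 ± 0.35, limma adjusted p = 2.58e-08). Mmp12, the macrophage elastase, stood at 134, 106, 43.9 and 92.95 FPKM against 3.17, 1.70, 2.05 and 3.06 FPKM (4.91 ± 0.47, limma adjusted p = 4.28e-07), and osteopontin, Spp1, was higher by 2.53 ± 0.20 (limma adjusted p = 3.35e-08). Col3a1, fibrillar collagen, was higher by 1.77 ± 0.27 (limma adjusted p = 9.06e-05). For Col1a1 (0.97 ± 0.32, limma adjusted p = 0.0442) the groups overlapped and the call ended without MCh library 2, 3 or 4 or OVA library 1, 2 or 4 (limma adjusted p from 0.0559 to 0.146). Of 31 genes 13 were higher and 4 lower, the lower ones being Col12a1, Eln, Sparc and Timp3. The higher count was 8 without OVA library 1, and the lower count 2 without MCh library 2 or 3 or OVA library 1 or 3. Tgfb1 did not pass (0.22 ± 0.16, limma adjusted p = 0.406), nor did the EGF receptor ligand Areg (limma adjusted p = 0.325), and of 24 genes of TGF-beta and EGF receptor signalling 1 was higher, the activin subunit Inhba (2.26 ± 0.44, limma adjusted p = 0.0011), and 4 lower. The lower count was 7 without MCh library 4, 1 without MCh library 2 or 3, and 2 without MCh library 1 or OVA library 1, 2 or 4, and 1 in the fit of the 8 libraries. Without OVA library 4 the higher count was 2.

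Lipid mediator and arginine pathways held several calls. Of 27 eicosanoid genes 15 were higher and 1 lower, with 2 lower without MCh library 1. Ptges, which makes prostaglandin E, stood at 23.7, 23.5, 15.8 and 26.3 FPKM in OVA and 6.86, 5.73, 4.97 and 4.23 FPKM in MCh (1.93 ± 0.24, limma adjusted p = 1.14e-05). The prostaglandin D receptor Ptgdr was listed at 0 in all 4 MCh libraries and at 1.82, 0.979, 1.43 and 1.57 FPKM in OVA (limma adjusted p = 8.18e-07). Of 13 tested genes of arginine and nitric oxide 4 were higher, among them Arg2 (0.98 ± 0.18, limma adjusted p = 0.000655) and the arginine transporter Slc7a2 (1.80 ± 0.47, limma adjusted p = 0.0127), and 1 lower, the endothelial synthase Nos3 (-0.70 ± 0.16, limma adjusted p = 0.00496). Slc7a2 was low in MCh library 1, at 5.14 FPKM against 21.6, 26.3 and 11.3 FPKM, and lost its call without it (1.35 ± 0.45, limma adjusted p = 0.0512). Nos2, the inducible synthase, did not pass. Heat shock genes, with 2 of 15 higher, and sterol and fatty acid synthesis genes, with 2 higher and 2 lower of 20, were near the background. Without MCh library 4 the lower count of the last list was 9, and without MCh library 1 its higher count was 4. Its lower count was 1 without MCh library 2 or 3 or OVA library 1, 2 or 4 and in the fit of the 8 libraries alone.

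Vessel genes were lower in part. Esm1, a proteoglycan of endothelial tip cells, stood at 3.82, 6.09, 6.83 and 5.32 FPKM in OVA and 15.8, 16.2, 15.3 and 20.2 FPKM in MCh (-1.55 ± 0.21, limma adjusted p = 3.51e-05), and the angiopoietin receptor Tek was lower, at -0.57 ± 0.13 (limma adjusted p = 0.00539). Selp, the adhesion receptor of activated endothelium and platelets, which was not in the endothelial list, went the other way, at 55.5, 69.1, 52.8 and 58.2 FPKM against 1.18, 3.82, 3.45 and 1.49 FPKM (4.43 ± 0.39, limma adjusted p = 1.19e-07). Of 17 endothelial genes 7 were lower and 0 higher (1 without MCh library 4), and the count of lower ones was 1 in a fit of the 8 libraries with a block for the replicate number and 2 to 7 without single libraries. It was 2 without MCh library 2, MCh library 3, OVA library 1 or OVA library 2, and 2 in the fit of the 8 libraries without the block, where Tek lost its call (limma adjusted p = 0.0695). Pecam1 and Kdr did not pass.

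Genes of tissues that border the lung varied between libraries within each group. Myh6, the atrial myosin that marks heart or pulmonary vein muscle, stood at 5.39, 1.77, 4.52 and 7.19 FPKM in OVA and 62.01, 26.2, 11.2 and 1.67 FPKM in MCh and did not pass (limma adjusted p = 0.243), and in limma 0 of the 14 cardiac genes were called with all libraries and 2 lower without MCh library 4, Myh6 among them (-2.50 ± 0.78, limma adjusted p = 0.0197). Summed cardiac FPKM ranged from 66.02 to 291 in OVA and 77.6 to 815 in MCh. Of 7 tested mesothelial genes 4 were lower, with Upk3b at 5.15, 13.8, 31.6 and 3.74 FPKM in OVA and 57.9, 22.4, 19.98 and 61.7 FPKM in MCh (-1.82 ± 0.46, limma adjusted p = 0.0102) and Msln at -1.68 ± 0.54 (limma adjusted p = 0.0405), and without MCh libraries 1 and 4 together, a check added after seeing the data, 0 were. The count was 1 without OVA library 1 or in the fit of the 8 libraries and 2 without MCh library 1 or 4 or OVA library 4. Upk3b overlapped between the groups through OVA library 3 and lost its call without OVA library 1 (0.0512), and Msln without MCh library 1 or 4 or OVA library 1 or 4 (limma adjusted p from 0.0633 to 0.179). No erythroid or platelet gene of 12 passed in limma, 1 was lower without MCh library 1 or 4, and the summed FPKM was 21913 in MCh library 4 against 4196 to 7856 in the other 7 libraries.

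Other genes with the largest lower values were few and of mixed kinds. Angptl7 stood at 3.23, 7.18, 14.7 and 2.66 FPKM in OVA and 63.1, 28.2, 26.1 and 40.8 FPKM in MCh (-2.63 ± 0.63, limma adjusted p = 0.0064). The fatty acid binding protein Fabp1, the actin-binding coronin Coro6 and the paraoxonase Pon1 were lower, at -2.36 ± 0.39, -2.33 ± 0.22 and -2.06 ± 0.21 (limma adjusted p = 0.00023, 2.24e-07 and 7.69e-07), and Krtap17-1 at -2.52 ± 0.35 (limma adjusted p = 4.01e-05). None of these 5 genes overlapped between OVA and MCh.

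Genes of the ribosome and the respiratory chain, whose transcripts are short, were called higher in numbers that depended on single libraries. Of 34 cytosolic ribosomal protein genes 6 were higher with all libraries, 34 without MCh library 4 and 2 without MCh library 1. The count was 1 without MCh library 2 or 3 or OVA library 1, and 3 without OVA library 2 or 3, and 2 in the fit of the 8 libraries alone. Of 26 respiratory chain genes 10 were higher, 24 without MCh library 4, 3 without MCh library 1 and 6 with the length trend removed. Without any 1 of the other 6 libraries the count was 2 to 6, and in the fit of the 8 libraries alone it was 1. Rplp0 stood at 2488, 2038, 1938 and 2066 FPKM in OVA and 1379, 1000.5, 1049 and 2400.5 FPKM in MCh (0.64 ± 0.19, limma adjusted p = 0.0258), where MCh library 4 was within the OVA range, and lost its call without MCh library 2 or 3 or OVA library 1 (limma adjusted p from 0.0962 to 0.114). The cytochrome oxidase subunit Cox5a was higher by 0.76 ± 0.14 (limma adjusted p = 0.000527). The apparent size of Rps27 (7.49 ± 2.41, limma adjusted p = 0.0404) is uncertain. Its near-identical copy Rps27rt, named after its values were seen, stood at 114, 1566, 124 and 79.3 FPKM in OVA and 1269, 1085, 981 and 2412 FPKM in MCh, where Rps27 stood at 1038, 2.66, 855 and 803 and 1.46, 0.167, 0.141 and 2.08 FPKM, so that 1 copy took most of the signal in each library. Rps27rt did not pass (limma adjusted p = 0.134) but was called lower without OVA library 2 (-3.69 ± 1.15, limma adjusted p = 0.0445). The sum of both copies differed by -0.27 between the group means on the log2 scale. The Rps27 call also ended without MCh library 1, 2 or 3 or OVA library 1, 3 or 4 (limma adjusted p from 0.0626 to 0.126).

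The same contrast exists in the long protocol, and the difference between the 2 contrasts was tested as an interaction in the same fit (n = 4 in each of the 4 groups). Of 15682 genes 130 passed (0.829%), 108 with a higher OVA minus MCh value in the short protocol (0.689%) and 22 with a higher value in the long protocol. Of the 130, 122 were also called in the short protocol alone, and all 108 positive ones were called higher there. Without short MCh library 4 the count was 2358, and the balance turned, with 766 positive and 1592 negative. With a pseudocount of 0.1 it was 70. In long MCh libraries a and c 34.3% and 33.8% of genes were listed at 0, against 23.0% and 23.4% in b and d. Without long MCh library a 176 genes passed, and without long MCh library c 161. Without all libraries with over 27% of genes at 0, which include short MCh library 1, 300 passed.

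Fgf23 (chr6:127072902-127081408, GRCm38), a hormone of phosphate balance made chiefly by bone, stood at 15.2, 15.2, 7.25 and 10.96 FPKM in short OVA and 0.0193, 0, 0.0146 and 0 FPKM in short MCh, against 0.383 ± 0.225 FPKM in long OVA (SD, n = 4) and 0 in all 4 long MCh libraries, and its OVA minus MCh value was larger in the short protocol by 3.80 ± 0.27 (limma adjusted p = 2.41e-07). It lay at 0.00541 ± 0.00936 FPKM in short PBS (SD, n = 3) and was not in any list. Timp1, Selp, Arg1, Il5 and Serpinb2 followed, at 3.59 ± 0.50, 3.59 ± 0.55, 3.54 ± 0.52, 3.26 ± 0.32 and 3.21 ± 0.39 (limma adjusted p = 0.000553, 0.00131, 0.000872, 5.86e-06 and 0.000128). The difference of Arg1 lost its call with a pseudocount of 0.1 (limma adjusted p = 0.104). In long OVA lungs Il5 stood at 0.343 ± 0.306 FPKM and Arg1 at 16.9 ± 5.94 FPKM, against 0.0213 ± 0.0245 and 0.973 ± 1.04 FPKM in long MCh (SD, n = 4 each).

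In the other direction Jchain had an OVA minus MCh value of 0.82 ± 0.50 in the short and 5.40 in the long protocol (difference -4.58 ± 0.71, limma adjusted p = 0.00135), from 24.4 ± 8.90 FPKM in long MCh to 1079 ± 482 FPKM in long OVA (SD, n = 4 each). Slpi, an antiprotease of airway secretions, was called higher in short OVA (1.81 ± 0.30, limma adjusted p = 0.000278) and stood at 3.83 in the long protocol (difference -2.02 ± 0.43, limma adjusted p = 0.0237), a difference that lost its call without long OVA library d (0.0612), short OVA library 2 (0.0634) or short OVA library 4 (0.0573). Cxcr1 and the lipid transporter Abca17 were lower in short OVA (-1.36 ± 0.33 and -1.89 ± 0.20, limma adjusted p = 0.00631 and 1.27e-06) and stood at 0.99 and 0.41 in the long protocol (differences -2.36 ± 0.46 and -2.31 ± 0.28, limma adjusted p = 0.0126 and 0.000128). Oosp1, an oocyte-secreted protein, and the collagen Col24a1 did not pass in the short protocol and had differences of -2.19 ± 0.25 and -2.29 ± 0.47 (limma adjusted p = 6.56e-05 and 0.019), and that of Col24a1 lost its call without long OVA library b (0.052).

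**Figure D5:**
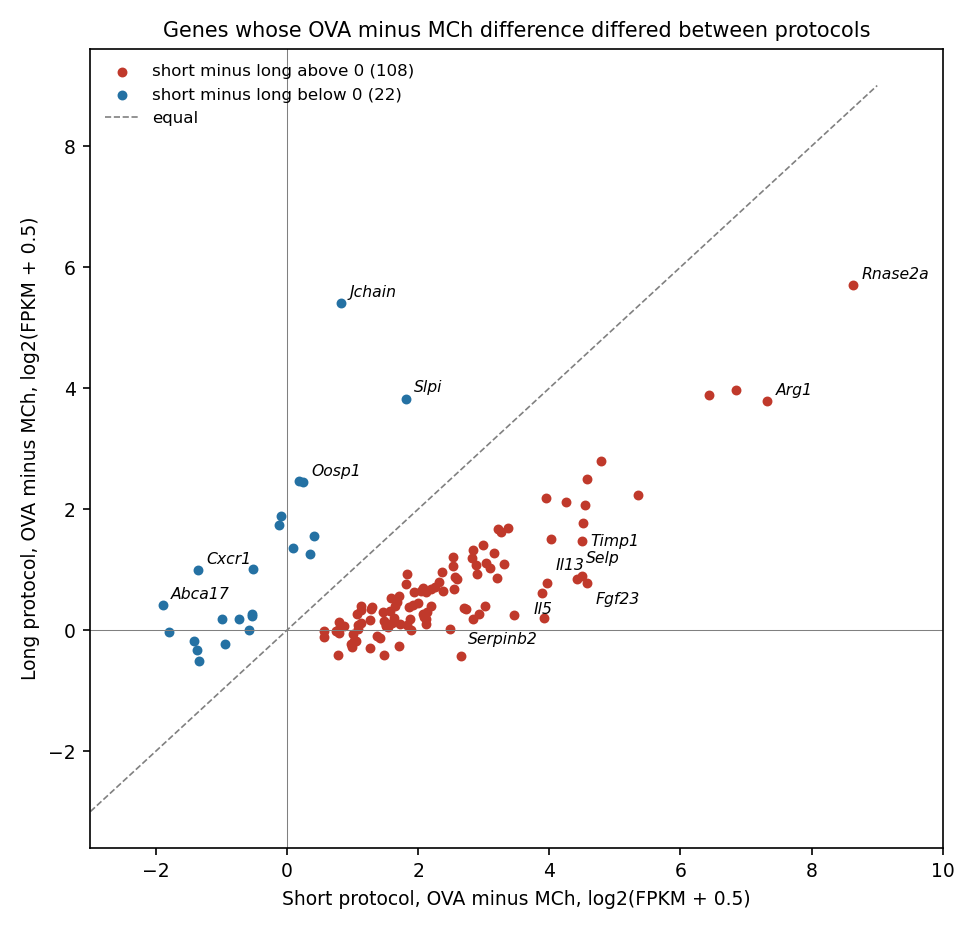
OVA minus MCh difference in log2(FPKM + 0.5) in the short protocol (x axis) and the long protocol (y axis) for the 130 genes whose 2 differences differed from each other, 108 with a positive (red) and 22 with a negative (blue) short minus long difference; the dashed line marks equal values. Red points lie below the line with Fgf23, Timp1 and Selp far to the right of 0, while Jchain and Slpi lie above the line.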

How the data were processed

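Whole lungs were sequenced as stranded total RNA, per the labels' protocols (RNeasy, DNase I, TruSeq). Per the submitters' processing notes, reads were handled with Trim Galore, STAR and DESeq2 on mm10. Their versions and the program behind the FPKM were not given in the sources used here. The authors deposited FPKM per gene, with no counts, so absolute depth is unknown. Where fragments are worth whole steps of FPKM, the commonest step relative to MCh library 2 was 0.905 to 1.11 in PBS libraries 1 to 3, OVA libraries 1 to 4 and MCh library 4, and unclear in MCh libraries 1 and 3. The steps from 0.905 to 1.11 rested on 8 to 21 of 569 to 859 genes with low values per library. In OVA library 2, 8 genes stood at 1.09 and 6 at 0.818, so equal depth is not established.

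Here limma 3.58.1 in R 4.3.3 was fitted to log2(FPKM + 0.5) in all 22 libraries, with 1 coefficient per group, a trended variance and 16 residual degrees of freedom. A gene was tested with 0.1 FPKM or more in 3 or more libraries, which left 15682 of 20938. 26 names were altered to dates and are not named, and some other genes are not reported here. In simulated data with 15682 genes, 70% of changes of 1 and 96% of changes of 2 on the log2 scale were called in OVA against MCh. In the comparison of protocols the shares were 37% and 86%. The changed genes had a mean log2(FPKM + 0.5) over 1, and the noise of each gene was normal and equal in all libraries. Lower genes, length trends and libraries that stand apart were not simulated, so these shares do not apply to them.

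The 8 libraries were set by their labels, and the comparison and its gene lists were chosen with earlier results of these data known. Genes named were the 15 called genes that rose most and the 15 that fell most, given a mean of 1 FPKM or more in the higher group, up to 5 of each list by p, a set of key genes, and the 6 largest differences between protocols in each direction. List members given only by name or call, and genes said to be named after their values were seen, fall outside that rule. Alternatives were other pseudocounts (0.1, 1), filters, scalings, weights, sets of libraries, a replicate block, removal of the length trend, sums of transcripts and a test against a 2-fold limit. Replicates are labelled as biological, with 1 library each. Coordinates are of GRCm38 (GENCODE M21), and promoter sequences of RefSeq GRCm38.p6.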

Additional observations from a re-analysis of the deposited data

Results flagged for a closer look

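Among 334 groups of 4 libraries, 1 OVA and 1 MCh group for each gene named with values, 23 had a library whose gap to its nearest neighbour took a larger part of the group's range than Dixon's 95% critical value. Chance flags about 1 in 20 groups. MCh library 4 stood apart for Mrc1 at 13.99, Sftpa1 at 7268, Sftpc at 13050.5, Ifit3 at 154 and Tagln at 353 FPKM. MCh library 4 stood apart also for Smtn at 7.55, Plcb4 at 19.6 and Coro6 at 11.04 FPKM. OVA library 3 stood apart for Ccl7 at 118, Epx at 0.943, Itgax at 68.6 and Bche at 5.92 FPKM. OVA library 1 stood apart for Il13ra2 at 4.36, Tek at 158 and Oosp1 at 0.488 FPKM. MCh library 1 stood apart for Il13ra2 at 0.0578, Nfil3 at 2.46 and Col24a1 at 1.003 FPKM. OVA library 2 stood apart for Chil4 at 119.8, Rps27 at 2.66 and Rps27rt at 1566 FPKM. MCh library 3 stood apart for Il13 at 0.0982 FPKM. MCh library 2 stood apart for Il21 at 0.0403 FPKM. For Il13, Il21 and Il13ra2 the other MCh libraries were listed at 0, so any value above 0 would have been flagged. Oosp1 in OVA had the same full statistic of 1.0. The rate of about 1 in 20 does not hold for such groups.

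The OVA minus MCh difference itself differed between the short and the long protocol, by an interaction term in limma, for 36 of the genes named, on the log2(FPKM + 0.5) scale. It was larger in the short protocol for Fgf23 by 3.80, Timp1 by 3.59, Selp by 3.59, Arg1 by 3.54, Il5 by 3.26 and Serpinb2 by 3.21. Next it was larger in the short protocol for Il13 by 3.19, Ccl24 by 3.12, Rnase2a by 2.93, Ccl7 by 2.89, Saa3 by 2.74 and Retnlb by 2.66. Then it was larger in the short protocol for Il4 by 2.62, Cd209e by 2.56, Tnfrsf9 by 2.48, Pdcd1lg2 by 2.09, Ch25h by 1.99 and Epx by 1.87. Then it was larger in the short protocol for Il6 by 1.82, Mcpt8 by 1.74, Il13ra2 by 1.68, Il21 by 1.58, C3ar1 by 1.54 and Spp1 by 1.47. Then it was larger in the short protocol for Ccr2 by 1.40, Mrc1 by 1.22, Rgs4 by 1.21, Ifng by 1.17 and Birc5 by 0.93. It was lower in the short protocol for Jchain (-4.58), Cxcr1 (-2.36), Abca17 (-2.31), Col24a1 (-2.29), Oosp1 (-2.19), Slpi (-2.02) and Cyp2f2 (-0.83). The limma adjusted p of these 36 differences ranged from 2.41e-07 to 0.0467. The call ended when 1 library was left out for the following genes, each with the number of such libraries and the highest limma adjusted p. These were Ccl7 (1, up to 0.0552 without long OVA library b), Ch25h (2, up to 0.0531 without long OVA library c), Pdcd1lg2 (6, up to 0.0691 without short OVA library 1) and Rnase2a (4, up to 0.0662 without short OVA library 1). Others were Cyp2f2 (12, up to 0.125 without short OVA library 1), C3ar1 (10, up to 0.105 without short OVA library 1), Tnfrsf9 (8, up to 0.0691 without long OVA library c) and Ifng (11, up to 0.114 without short OVA library 1). Others were Birc5 (3, up to 0.0669 without short OVA library 1), Col24a1 (1, up to 0.052 without long OVA library b) and Slpi (3, up to 0.0634 without short OVA library 2). With a pseudocount of 0.1, 16 of the 36 lost their call (limma adjusted p from 0.0559 to 0.319). They were Arg1, Ccl7, Ccl24, Cd209e, Ch25h, Col24a1, Cyp2f2 and Il21. The rest of the 16 were Birc5, C3ar1, Ifng, Mcpt8, Pdcd1lg2, Rnase2a, Saa3 and Tnfrsf9.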

How the results depend on the processing

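The count of 2381 genes called between OVA and MCh stayed within 1.5 times under other pseudocounts, filters, median-of-ratios and quantile scaling, robust variances, fits of 8 or 11 libraries, removal of the length trend and transcript sums. It was 8984 (4153 higher, 4831 lower) with array weights, 7736 without libraries of a weight under 0.25, 3947 without libraries with over 27% of genes at 0, 157 (150 higher, 7 lower) against a 2-fold limit and 4526 without MCh libraries 1 and 4 together, the last chosen after seeing the data. Leaving out single libraries gave 1556 (without OVA library 1) to 4835 (without MCh library 4). A replicate block in a fit of the 8 libraries gave 1112 (864 higher, 248 lower). Replicate numbers were not treated as pairs, since correlations of same-numbered deviations were 0.10, 0.02, -0.03 and -0.13. No library correlated best with its own number.

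The 130 differences between protocols became 70 with a pseudocount of 0.1, 256 with quantile normalization, 4653 (1799 positive, 2854 negative) with array weights, 79 in a fit of the 16 compared libraries, 300 without libraries with over 27% of genes at 0, 3653 (1491 positive, 2162 negative) without those of low weight, 243 with the length trend removed and 10 against a 2-fold limit. Leaving out single libraries gave 86 (without short OVA library 1) to 2358 (without short MCh library 4; 766 positive, 1592 negative).

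Of 167 genes named with values, 147 were called, and 85 of these lost the call under at least 1 of 25 settings, the 2-fold limit included. Signs turned for Sftpc with quantile normalization (-0.50), for Myh11 without MCh library 4 (-0.42; -0.42 to 0.37 over single libraries left out) and for the protocol difference of Ccl11 with array weights (1.25) or without libraries of low weight (1.37); the cause was not tested. Without counts, low FPKM values carry no counting interval, and genes at or near 0 in MCh have folds that depend on the pseudocount.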
